A study of Mus musculus with 34 samples.

Results

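Folr2, Stab1, Cd163, C1qb, Clec4a2 and Dnase1l3 are genes that long-lived tissue macrophages are known to express, and their log ratios were followed through every pairing of mouse epididymal fat samples. The 6 genes were picked by symbol with their ratios over all pairings in view, and each was found in the probe annotation of the deposited value table. Each had 1 probe, giving 6 probes of 25344 and 6 genes of the 18617 with a symbol. Their values are therefore a description, and no test is claimed on them.

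The 34 arrays each compared 2 groups of mice in 2 dyes, Cy5 and Cy3, and every pairing was run in both dye orientations. STD mice ate a normal diet. HF0 mice were offspring of STD mice and ate a high fat diet, HF1 mice were offspring of HF0, HF3 of HF2 and HF4 of HF3, and all of these ate the high fat diet. Each reversal group, HF1-REV, HF3-REV or HF4-REV, shared its parents with the high fat group it is named for and ate the normal diet. HF2 mice were not analysed here. All groups share the tissue, epididymal fat, and the labels give no strain, sex or age and no number of animals per extract. Experiment 1, with Trizol extracts, held 12 arrays of STD, HF0, HF3 and HF4, and experiment 2, with Qiagen extracts, held 22 arrays of all 8 groups. The labels do not name replicates as separate animals, so the spread between arrays may be technical.

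Resident macrophages of adipose tissue sit along blood vessels, clear dead cells, iron and debris, and are renewed largely in place. Macrophages recruited from blood monocytes during weight gain instead gather around dying adipocytes and take up lipid. Folr2 encodes folate receptor beta, a membrane-anchored vitamin receptor, and Stab1 encodes stabilin-1, a scavenger receptor for modified lipoproteins and matrix proteins. Cd163 is the scavenger receptor for haemoglobin bound to haptoglobin. C1qb is the B chain of C1q, which joins with the A and C chains to start the classical complement pathway. Clec4a2 is an inhibitory C-type lectin receptor, and Dnase1l3 is a secreted nuclease that cuts DNA in chromatin. In whole tissue, fewer cells of a type and less RNA per cell cannot be told apart.

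The promoters of these genes are shown because PU.1 and MAF family factors are known to act in macrophages. A further reason is that the genes were examined as a group, though they did not move together in every pairing. RefSeq promoter windows of build GRCm38.p6, from 250 bases before to 50 after a transcript start, were found for 5 of the 6 genes, all but Dnase1l3. Both strands were searched for the PU.1 core GAGGAA and for the MAF core TGCTGA, 2 motifs that do not overlap. The first was found in 28.3% of 32851 promoter windows of the table, the second in 19.5% and both in 5.36%. The windows of C1qb and Stab1 held both, that of Folr2 the MAF letters alone, and that of Cd163 neither, with matches printed in capitals.
C1qb (chr4:136886151-136886450, minus strand): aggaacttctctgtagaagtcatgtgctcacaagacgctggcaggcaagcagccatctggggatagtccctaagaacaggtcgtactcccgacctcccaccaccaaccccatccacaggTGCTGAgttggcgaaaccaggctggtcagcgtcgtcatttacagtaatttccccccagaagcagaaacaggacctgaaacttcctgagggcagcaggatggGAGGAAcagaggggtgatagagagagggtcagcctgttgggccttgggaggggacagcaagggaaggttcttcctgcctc
Stab1 (chr14:31168592-31168891, minus strand): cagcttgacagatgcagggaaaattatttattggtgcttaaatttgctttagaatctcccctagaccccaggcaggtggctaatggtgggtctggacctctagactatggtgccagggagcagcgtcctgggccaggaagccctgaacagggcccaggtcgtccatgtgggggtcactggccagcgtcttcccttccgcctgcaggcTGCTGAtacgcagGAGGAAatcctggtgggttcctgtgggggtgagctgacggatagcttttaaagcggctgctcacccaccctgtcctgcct
Folr2 (chr7:101857141-101857440, minus strand): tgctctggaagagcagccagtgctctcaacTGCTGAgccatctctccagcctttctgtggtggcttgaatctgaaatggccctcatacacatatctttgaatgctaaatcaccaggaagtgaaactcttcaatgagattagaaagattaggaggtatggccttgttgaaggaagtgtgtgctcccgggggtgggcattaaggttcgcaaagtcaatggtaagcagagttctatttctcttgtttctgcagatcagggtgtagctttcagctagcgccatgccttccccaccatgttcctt
Cd163 (chr6:124304401-124304700, plus strand): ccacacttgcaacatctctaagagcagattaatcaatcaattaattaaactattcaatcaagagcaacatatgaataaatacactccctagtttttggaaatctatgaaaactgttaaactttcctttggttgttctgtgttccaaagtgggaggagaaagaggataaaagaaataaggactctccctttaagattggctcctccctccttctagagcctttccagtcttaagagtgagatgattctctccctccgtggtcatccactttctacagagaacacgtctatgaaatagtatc
Folr2 has a second annotated start, whose window also held TGCTGA, and the Clec4a2 window held only TCAGCA, the MAF letters on the other strand. Such a match is a run of letters and not a bound site.

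The values are 1 log ratio per probe and array, taken as log2, with no intensity beside it, so dim spots could not be set aside and the level of a gene in any one group is unknown. For the same reason the presence of fat or macrophage markers in the tissue could not be checked, only their ratios between groups. A ratio was coded as Cy5 over Cy3 and then turned so that it reads the first-named group over the second. The labels do not say which dye was the numerator, and with Cy3 on top every sign given here would turn. Array medians lay between -0.062 and 0.046 before centring.

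The pairings of experiment 1 did not add up, which bears on every value from it. Where 3 groups are all paired with each other, the direct ratio should equal the sum of the other pairings. Over the 4 such triangles of experiment 1 the correlation of direct and summed ratios across features ran from -0.02 to 0.65, and over the 4 of experiment 2 it ran from 0.69 to 0.82. For the 6 genes the direct and summed values missed each other by a median of 0.80 in experiment 1 and 0.16 in experiment 2, against medians over all features of 0.26 and 0.22. The widest miss was that of Folr2 in experiment 1, where HF3 against STD measured 0.61 directly and -1.42 through HF0. Cst11, an epididymis gene, showed the same break, with HF0 against STD at -3.47 and HF4 against STD at -2.89 beside HF3 against STD at 0.11 and HF3 against HF0 at -0.05. The labels do not say whether the pairings of an experiment used the same extracts. Direct ratios are therefore given apart by experiment, and levels are read mainly from experiment 2. The limma differences and calls come from 1 fit over the group values of both experiments, those of experiment 1 included.

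**Figure D1:**
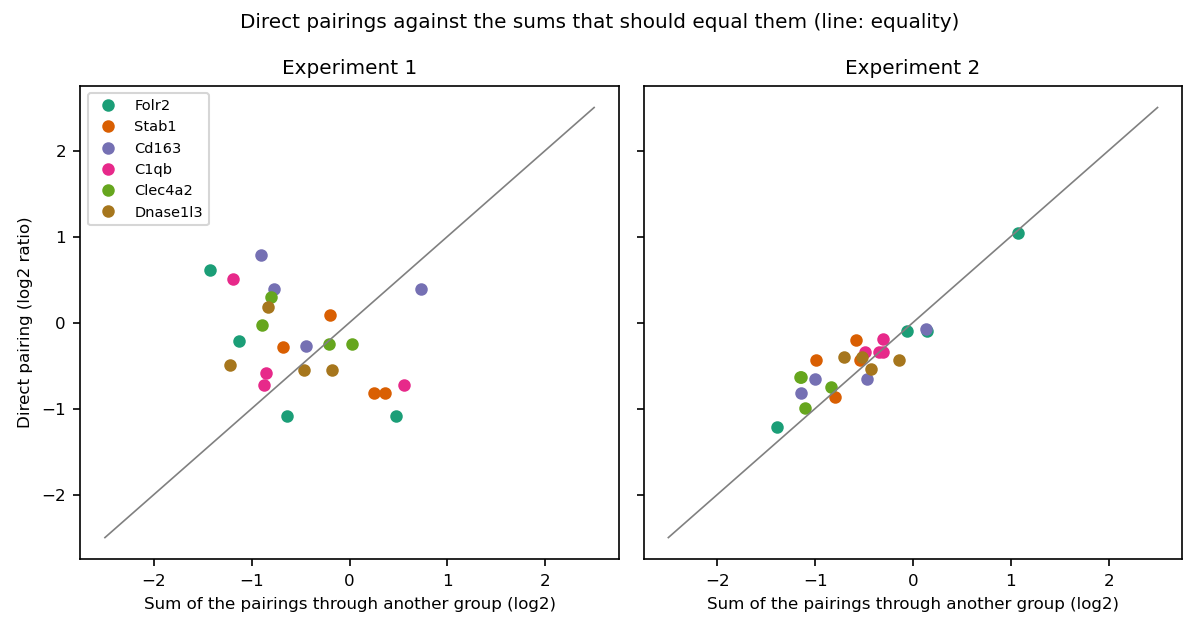
Direct log2 ratio of a pairing (vertical axis) against the sum of the pairings through another group (horizontal axis), 1 point per gene and triangle, with the line of equality. The points of experiment 1 scatter away from the line by a median of 0.80, and those of experiment 2 lie near it, with a median miss of 0.16.

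Dye orientation also moved single arrays. Of the 96 combinations of a gene and a pairing, 66 had the same sign in all their arrays, beside 46.3% of such combinations over all features. The genes were chosen with their values in view, so nothing is read from that count. The orientations differed by a median of 0.47. Folr2 had the widest gap, 1.83, in HF4 against HF4-REV, where both orientations were nonetheless negative.

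The median of the 6 genes lay farthest from 0 in HF4 against HF4-REV, at -1.39, measured on 2 arrays of experiment 2. Cd163 was farther from 0 in HF0 against STD of experiment 2, with a mean of 1.55. All 12 values were negative, that is, on the side of HF4-REV. All 6 genes were thus negative on both arrays, a pattern shown by 29.9% of all features. Folr2 read -1.50 and -3.33, the most negative value of any of the 6 genes. Clec4a2 read -1.55 and -2.26, and C1qb read -1.08 and -1.65. These ratios are large beside the median absolute ratio of all features in the pairing, 0.31. Dnase1l3 read -0.998 and -1.81, Stab1 read -1.10 and -0.79, and Cd163 read -0.97 and -0.95. Cd163 and Stab1 were the nearest to 0, yet neither array of either gene came above -0.79. The fit over all pairings gave -2.57 ± 0.61 for Folr2, -1.83 ± 0.26 for Clec4a2, -1.55 ± 0.34 for C1qb, -1.49 ± 0.15 for Dnase1l3, -1.0 ± 0.39 for Cd163 and -0.94 ± 0.20 for Stab1 (SE). Of the 6, all but Cd163 were among the negative calls of limma at an adjusted p under 0.05, a side that took 3.8% of all features, with 7.35% on the positive side and 11.2% in all. Because the genes were chosen with this contrast in view, nothing is read from that count. After quantile normalization 0 of the 6 were called, and of the 22879 features limma called 11 negative and 18 positive. After scale normalization 2 of the 6 were called, and of all features 192 negative and 902 positive. The main fit called 870 features negative and 1682 positive. The count of the 6 was 2 without 1 array of HF3 with STD in experiment 1, or of HF0 with STD or HF3 with HF0 in experiment 2. It was 3 without 1 array of HF4 with HF0 or HF3 with HF1 in experiment 2. The share of features called without those arrays is not given here. Across the scaling alternatives the least negative value was -2.01 for Folr2 and -0.70 for Stab1.

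**Figure D2:**
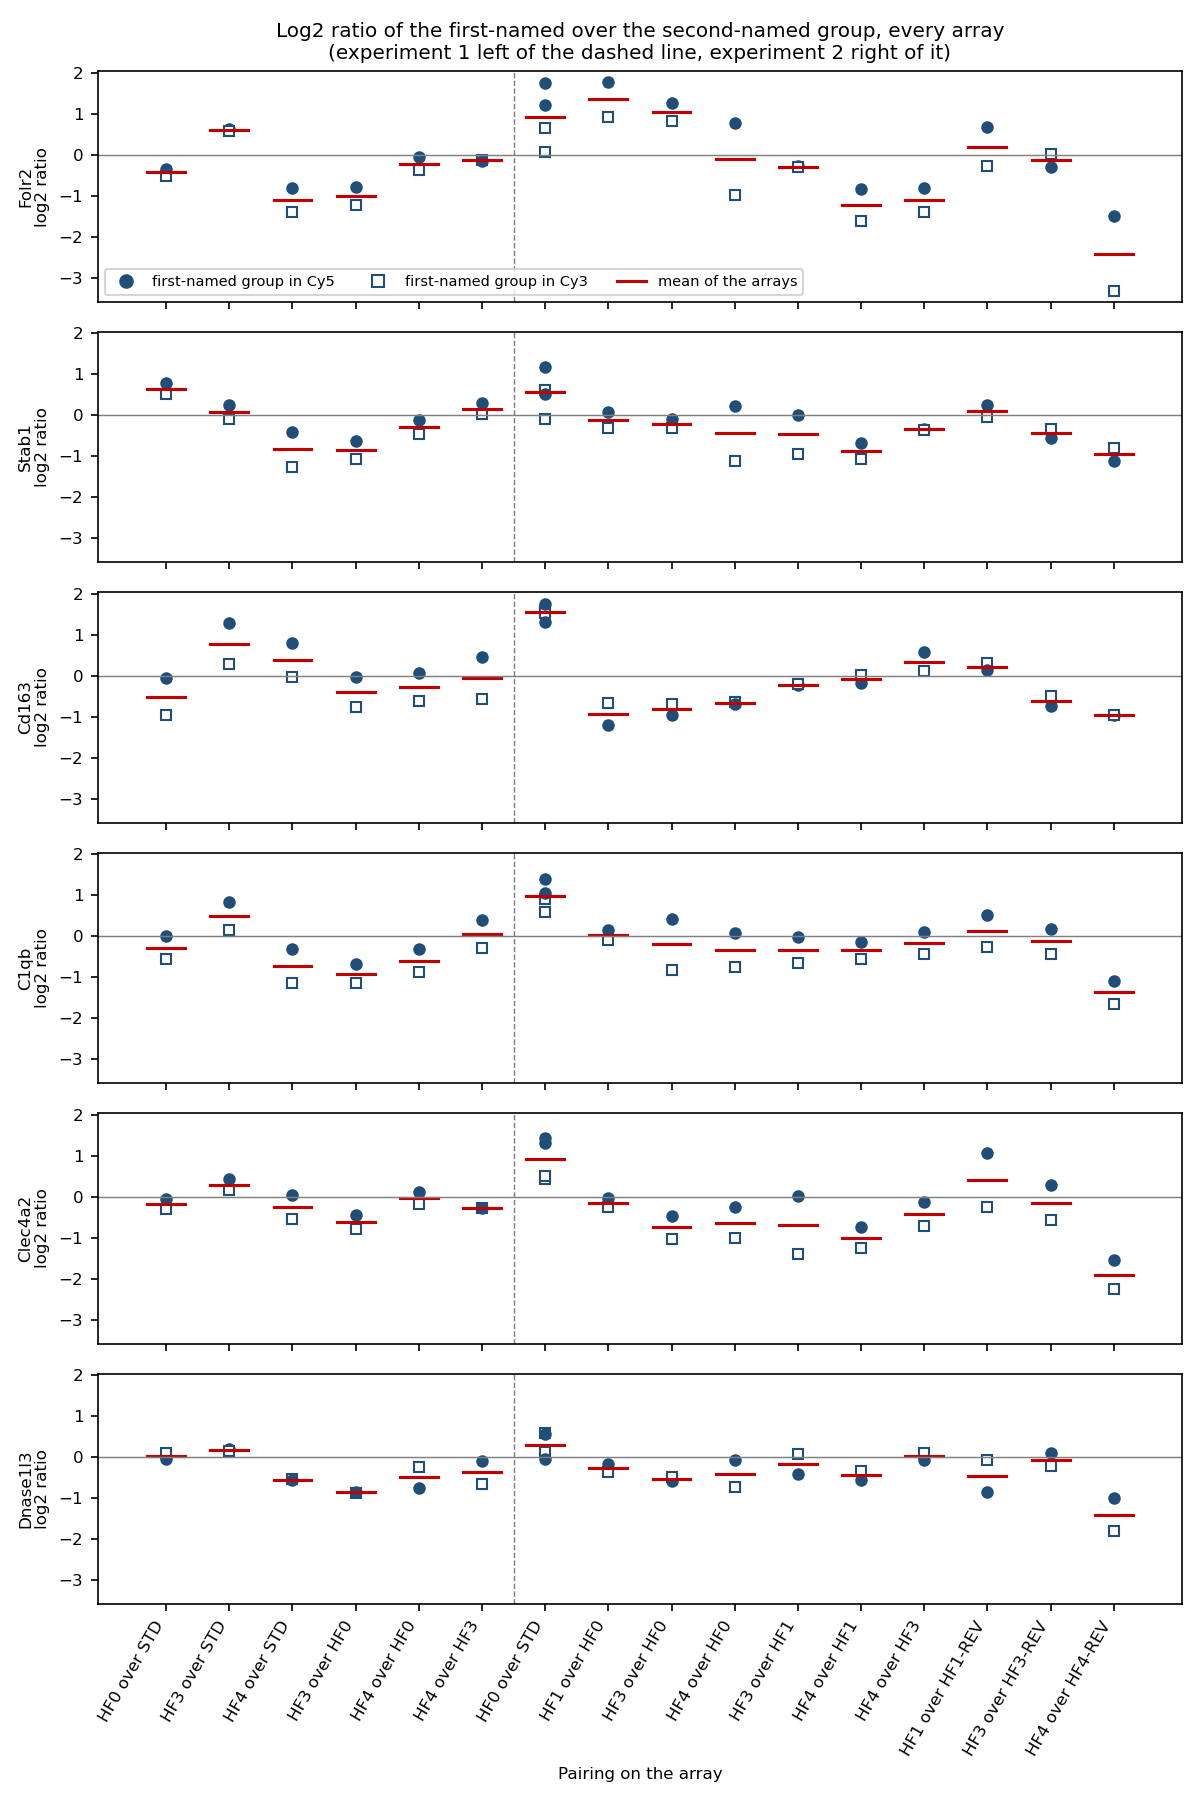
Log2 ratio of the first-named over the second-named group for each of the 6 genes (panels) on each array, by pairing, with filled circles for the first-named group in Cy5, open squares for it in Cy3 and a bar for the mean. All 12 points of HF4 over HF4-REV lie at or under -0.79, while HF0 over STD has opposite mean signs in the experiments for Folr2, Cd163, C1qb and Clec4a2.

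Other genes of resident macrophages lay on the same side in that pairing. Of 33 measured, 31 had a negative mean over the arrays, with a median of -1.09, against a median of 0.02 over all features. Limma called 8 of the 33 negative, among them Clec10a, a galactose-type lectin (-1.87 ± 0.39), Pla2g2d, a secreted phospholipase (-1.59 ± 0.28), and Cbr2, a carbonyl reductase (-1.59 ± 0.36; SE). It called 1 positive, Timd4, a receptor for phosphatidylserine, at 1.09 ± 0.21 (SE), although its arrays disagreed, at -0.19 and 2.47. Mrc1, the mannose receptor, had -1.14 and -1.24 and was not called, and Lyve1, a hyaluronan receptor, had -0.64 and -0.67 and was not called either.

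Pan-macrophage genes were less far from 0, with a median of -0.84 and 12 of 15 negative. Adgre1, a surface receptor and classic macrophage marker, was called at -1.04 ± 0.19, and Tyrobp, a signalling adaptor, at -1.29 ± 0.28 (SE). Genes of recruited and lipid-laden macrophages had a median of -0.49, with 14 of 17 negative. The called ones were Acp5, an acid phosphatase, at -1.38 ± 0.15, and Ccl3, a chemokine, at -1.05 ± 0.20 (SE). Cd9, a tetraspanin and the gene of the list farthest from 0, read -2.13 and -2.42 and was not called. Mmp12, the macrophage elastase, read 0.34 and 0.16, and Lgals3, galectin-3, read 0.41 and 0.18, which makes them 2 of the 3 genes of the list with a positive mean. Within each array the mean of the 6 genes lay under the mean of the recruited list, with differences of -0.71 and -1.24. It also lay under the mean of the pan-macrophage list, with differences of -0.62 and -1.15. The 6 genes were chosen with these ratios in view, so the differences are descriptions.

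Iron handling beside Cd163 was mixed. Of 11 measured genes of haemoglobin and haem handling, 9 were negative, with a median of -0.48, and 2 were called, both negative. These were Slc40a1, the iron exporter ferroportin, at -1.84 ± 0.21, and Blvrb, a biliverdin reductase, at -1.0 ± 0.22 (SE). Hmox1, which opens the haem ring, read -0.31 and -0.69, and Hp, haptoglobin itself, read 0.41 and 0.01. Of the relatives of the other members, Stab2 had a mean of 0.27 and Folr1 -0.09. The arrays of both genes disagreed in sign, at 0.70 and -0.17 for Stab2 and -0.41 and 0.24 for Folr1. The 6 measured members of the DNase family had a median of 0.14, away from the negative values of Dnase1l3. Dnase1l1, the farthest from 0 of these 6, was however negative on both arrays, at -0.64 and -0.54.

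Markers of other cells also lay away from 0 in this pairing. All 11 male germ cell markers were positive and called, with a median of 5.12 over a range of 3.35 to 5.82, and 7 epididymis markers ran from -1.65 to 3.47. Adipocyte markers had a median of -0.69, with 9 of 10 negative, and 11 of 12 endothelial markers were negative, with a median of -0.54. All 4 erythroid markers had a negative mean, and Alas2, the haem synthesis enzyme of red cells, read -2.98 and -2.61. Hbb-b1 read -0.22 and -2.07, while Hba-a1, at 0.53 and -2.12, and Slc4a1, at -1.19 and 0.09, had arrays on both sides of 0. The 4 lymphatic endothelial markers were all positive, with a median of 0.58. Dendritic cell markers had a median of -0.59, with 9 of 12 negative. The part of these cells in the ratios of the 6 genes was not tested.

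**Figure D3:**
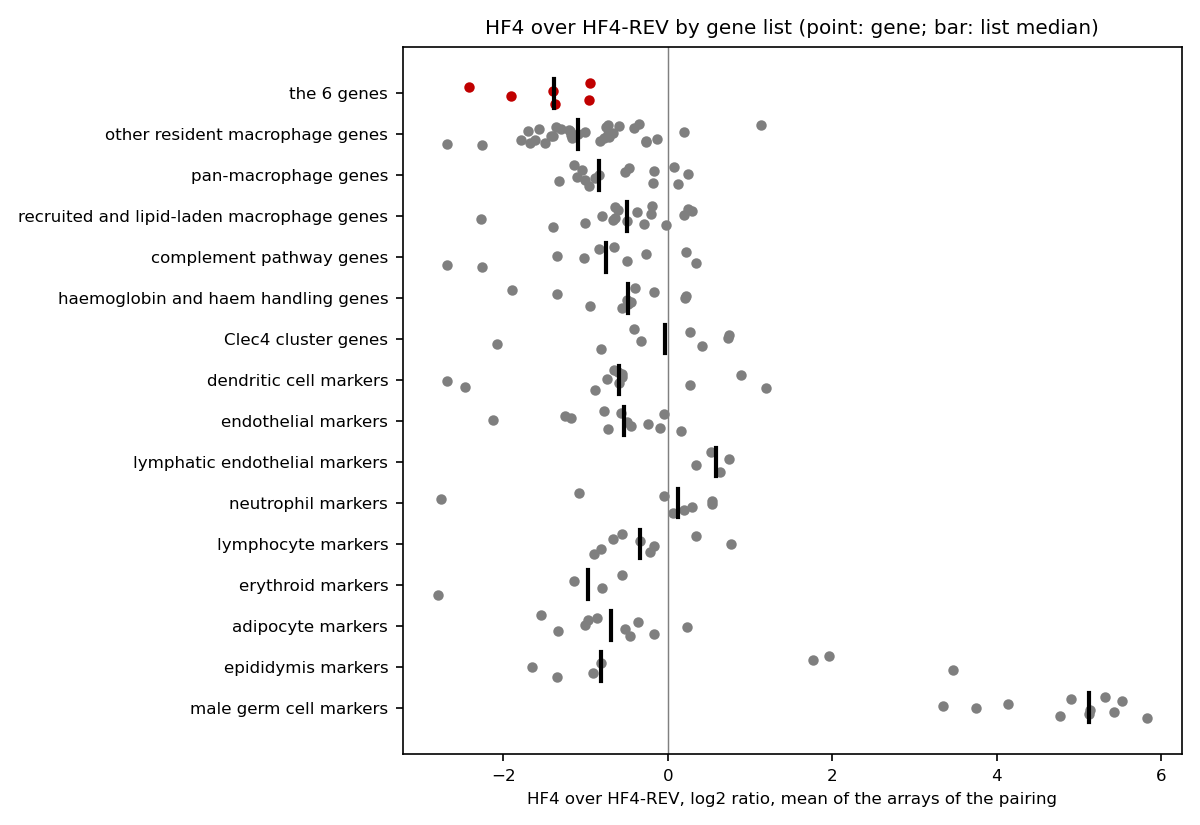
Mean log2 ratio of HF4 over HF4-REV on the arrays of the pairing, for each gene (point) of each list (rows), with a bar at the list median. The 6 genes have a median of -1.39, the other resident macrophage genes -1.09, the recruited list -0.49 and the male germ cell markers 5.12.

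In the earlier generations the mean of each of the 6 genes against the reversal group lay nearer 0 than in HF4. In HF3 against HF3-REV the means of Cd163 and Stab1 were -0.61 and -0.44, beside -0.96 and -0.95 in HF4 against HF4-REV. In HF1 against HF1-REV, Folr2 read -0.28 and 0.68, C1qb -0.26 and 0.53, and Clec4a2 -0.25 and 1.07, so the arrays disagreed in sign. Stab1, with -0.05 and 0.26, also crossed 0. Cd163 was positive on both arrays, at 0.31 and 0.14, and Dnase1l3 negative on both, at -0.06 and -0.85. A pair of values of one positive sign was found in 16.7% of all features in this pairing and of one negative sign in 16.3%, beside 1 of the 6 genes for each.

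In HF3 against HF3-REV, Cd163 read -0.73 and -0.49 and Stab1 read -0.54 and -0.34. These 2 scavenger receptor genes were the ones negative on both arrays, a pattern shown by 23.0% of all features. The others straddled 0: Folr2 read -0.30 and 0.03, C1qb 0.18 and -0.43, Clec4a2 0.28 and -0.58, and Dnase1l3 0.09 and -0.21. Among the 33 other resident macrophage genes the direct median was -0.19. Limma called 0 of the 6 in HF1 against HF1-REV, where 0.0% of features were called, and 0 in HF3 against HF3-REV, where 0.0874% were. At an unadjusted p under 0.05 it counted 1 of the 6 in each, beside 3.59% of features in HF1 against HF1-REV and 15.4% in HF3 against HF3-REV. Whether the HF4 ratio differs from those of HF1 and HF3 was not tested, because the genes were chosen on these values.

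High fat diet in the first generation, HF0 against STD, gave opposite signs in the experiments for most of the 6 genes. In experiment 2 the 4 arrays read 1.59, 1.54, 1.74 and 1.32 for Cd163, the highest of the 6. C1qb read 0.92, 0.59, 1.39 and 1.05, Folr2 read 0.66, 0.08, 1.75 and 1.23, and Clec4a2 read 0.42, 0.51, 1.44 and 1.31. These 4 genes were positive on every array, as were 13.6% of all features. Stab1 crossed 0, with 0.62, -0.09, 1.19 and 0.52, and so did Dnase1l3, with 0.58, 0.12, 0.57 and -0.05. The means were nearly the same on both label dates, for example 0.98 and 0.99 for C1qb.

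In experiment 1 the same comparison read -0.06 and -0.95 for Cd163, -0.34 and -0.51 for Folr2, -0.05 and -0.31 for Clec4a2, and -0.003 and -0.56 for C1qb. These 4 genes were thus negative on both arrays, as were 22.1% of all features. Stab1 was positive on both, at 0.78 and 0.51, as were 22.4% of features, and Dnase1l3 straddled 0, at -0.05 and 0.11. Stab1 was the member whose mean was of like size in both experiments, 0.65 in experiment 1 and 0.56 in experiment 2. None of the 6 genes was positive on all 6 arrays of the comparison, a pattern of 2.13% of features. Limma called 0 of the 6 and 0.0% of all features at an adjusted p under 0.05, and at an unadjusted p under 0.05 it counted 3 of the 6 beside 7.36% of features.

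The resident and pan-macrophage lists also had opposite signs in the experiments. The other resident macrophage genes had a median of 0.83 in experiment 2, with 32 of 33 positive, and -0.27 in experiment 1, with 29 of 33 negative. Mrc1 read 1.28, 1.07, 1.84 and 1.57 in experiment 2 and -0.12 and -0.58 in experiment 1. Pan-macrophage genes had a median of 0.70 in experiment 2, with 15 of 15 positive, and -0.19 in experiment 1, with 11 of 15 negative. Recruited and lipid-laden macrophage genes had a median of 0.70 in experiment 2, with 13 of 17 positive, and 0.03 in experiment 1, with 8 of 17 negative. Among them Ccl3 read -1.25 and -2.09 in experiment 1. Mmp12 was positive on every array, at 3.20, 3.33, 3.38 and 2.72 in experiment 2 and 2.25 and 1.72 in experiment 1. Itgax, an integrin of myeloid cells, was also positive on every array, with means of 1.09 in experiment 2 and 0.78 in experiment 1. Epididymis markers were negative in both experiments, with a median of -5.49 in experiment 2 and -3.22 in experiment 1, and male germ cell markers had medians of -3.59 in experiment 2 and 0.03 in experiment 1. Endothelial markers had a median of -0.80 in experiment 2, with 11 of 12 negative, and 0.55 in experiment 1, with 11 of 12 positive. Of 10 adipocyte markers, 9 were negative in each experiment. The part of these cells in the ratios of the 6 genes was not tested.

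Among high fat generations, Folr2 parted from the other members in experiment 2. In HF1 against HF0 it read 1.78 and 0.93, while Cd163 read -1.19 and -0.67. C1qb stayed near 0, at 0.15 and -0.08, and Stab1 read 0.07 and -0.32. Clec4a2, with -0.03 and -0.25, and Dnase1l3, with -0.17 and -0.36, were negative on both arrays, as was Cd163. A pair of values of one positive sign was seen in 26.7% of all features, beside 1 of the 6 genes, and of one negative sign in 27.4%, beside 3. Limma called 0 of the 6 and 0.0% of features, and at an unadjusted p under 0.05 it counted 0 of the 6 beside 7.18% of features.

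HF3 against HF0 showed the same split in experiment 2, with Folr2 at 1.26 and 0.82 and Cd163 at -0.95 and -0.67. Clec4a2 read -0.47 and -1.02, Dnase1l3 -0.58 and -0.49, Stab1 -0.09 and -0.31, and C1qb 0.43 and -0.83. Folr2 alone of the 6 was positive on both arrays, as were 23.9% of all features, and 4 were negative on both, as were 24.7%. In experiment 1 all 6 genes were negative on both arrays, as were 23.5% of features. Folr2 read -1.22 and -0.77 there, C1qb -1.15 and -0.68, Stab1 -1.06 and -0.63, Dnase1l3 -0.86 and -0.85, Clec4a2 -0.79 and -0.45, and Cd163 -0.77 and -0.02. Folr2 thus had opposite signs in the experiments, with means of -1.0 in experiment 1 and 1.04 in experiment 2. Stab1, Cd163, Clec4a2 and Dnase1l3 were negative on all 4 arrays, as were 6.56% of features, and limma called 0 of the 6 and 0.0% of features, with 2 of the 6 and 7.8% of features at an unadjusted p under 0.05.

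In HF4 against HF0, Dnase1l3 was the member negative on all 4 arrays, at -0.75 and -0.24 in experiment 1 and -0.73 and -0.06 in experiment 2. A run of 4 negative values occurred in 5.36% of all features. Cd163 read 0.07 and -0.60 in experiment 1 and -0.63 and -0.70 in experiment 2. Clec4a2 read 0.12 and -0.17, then -1.02 and -0.26. For Folr2 the values were -0.05 and -0.37 in experiment 1 but -0.97 and 0.77 in experiment 2, so its dye orientations disagreed in the second. Stab1 read -0.10 and -0.46, then -1.11 and 0.23, and C1qb read -0.32 and -0.86, then -0.76 and 0.07. Limma called 0 of the 6, beside 4.21% of all features, nearly all of them positive, and counted 3 of the 6 at an unadjusted p under 0.05, beside 10.9% of features. It called 2 of the 6 without the STD value of experiment 2 or without 1 array of HF4 with HF0 in that experiment. It called 1 without 1 array of HF3 with HF1, HF1 with HF0 or HF4 with HF1 there. Without that STD value the calls over all features were 1321 positive and 32 negative, beside 959 and 4 in the main fit. The share of features called without those arrays is not given here. All 11 male germ cell markers were positive in both experiments of HF4 against HF0, with medians of 3.37 in experiment 1 and 5.12 in experiment 2, and all 11 were called. They were also positive in both experiments of HF3 against HF0, with medians of 4.89 in experiment 1 and 3.36 in experiment 2, and 0 were called. Their part in the ratios of the 6 genes was not tested.

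Most members were negative in HF4 against HF1. In this pairing, measured in experiment 2, 5 of the 6 genes were negative on both arrays, all but Cd163, as were 28.5% of all features. Folr2 read -0.83 and -1.60, Clec4a2 read -0.74 and -1.26, and Stab1 read -0.66 and -1.07, counting the array with HF4 in Cy5 first. Cd163 read -0.17 and 0.02, and C1qb and Dnase1l3 had means of -0.34 and -0.44. In HF3 against HF1 the means ran from -0.69 for Clec4a2 to -0.16 for Dnase1l3. In HF4 against HF3, Folr2 had a mean of -1.10 in experiment 2 and -0.13 in experiment 1, and Stab1 had means of -0.34 and 0.16. Cd163 and Dnase1l3 had means of 0.35 and 0.02 in experiment 2 and of -0.05 and -0.36 in experiment 1. C1qb and Clec4a2 had means of -0.155 and -0.41 in experiment 2 and of 0.057 and -0.27 in experiment 1. Limma called 0 of the 6 in each of these comparisons, beside 2.81% of features in HF4 against HF1 and 0.0% in the other 2. At an unadjusted p under 0.05 it counted 2 of the 6 in HF3 against HF1, 2 in HF4 against HF1 and 0 in HF4 against HF3, beside 9.12%, 16.5% and 5.5% of features. Markers of other cells also lay away from 0 in these pairings. All 11 male germ cell markers were positive in HF4 against HF1, with a median of 4.56 and 7 called, and in HF4 against HF3, with medians of 1.29 in experiment 2 and 2.49 in experiment 1. In HF4 against HF1 the median was -0.80 for endothelial markers and -1.13 for the 4 erythroid markers, of which 2 were called. Their part in the ratios of the 6 genes was not tested.

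Direct pairings with STD beyond HF0 exist for experiment 1. In HF3 against STD, 5 of the 6 genes were positive on both arrays, as were 20.9% of features, with Cd163 at a mean of 0.78, Folr2 at 0.61 and C1qb at 0.50. In HF4 against STD the mean was -1.09 for Folr2, -0.82 for Stab1, -0.72 for C1qb and -0.55 for Dnase1l3, and these 4 were negative on both arrays, as were 23.7% of features. Cd163 had a mean of 0.39 and Clec4a2 of -0.25, each with arrays on both sides of 0. These values belong to the triangles that did not add up. Limma called 0 of the 6 in either comparison, beside 0.0% of features in HF3 against STD and 0.437% in HF4 against STD, and counted 0 and 1 of the 6 at an unadjusted p under 0.05, beside 7.47% and 15.0%.

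Levels fitted over all arrays of experiment 2, relative to HF0, put HF4-REV highest for each of the 6 genes. Gaps between neighbours are set beside the residual SD of the gene's arrays. That SD is a spread between arrays, which may be technical, so a wider gap is a description and not a test of a difference between groups of mice. Folr2 stood at 2.38 ± 0.56 in HF4-REV, then 1.29 ± 0.32 in HF1, 1.17 ± 0.56 in HF3-REV, 1.09 ± 0.56 in HF1-REV and 1.04 ± 0.32 in HF3 (SE). It was 0 in HF0 by definition, -0.03 ± 0.32 in HF4 and -0.93 ± 0.32 in STD. In this order 3 gaps were wider than the residual SD of 0.65: below HF4-REV, below HF3 and below HF4. The gaps among HF1, HF3 and their reversal groups were narrower than it.

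Cd163 had the smallest residual SD, 0.20, and an order of its own. It stood at 0.26 ± 0.17 in HF4-REV, 0 in HF0, -0.34 ± 0.17 in HF3-REV and -0.70 ± 0.10 in HF4 (SE), each gap wider than that SD. HF1 at -0.76 ± 0.10, HF3 at -0.95 ± 0.10 and HF1-REV at -0.99 ± 0.17 followed in gaps narrower than it, and STD was last at -1.55 ± 0.10. In experiment 2 its level in HF0 was thus above that of each later high fat generation. In experiment 1 Cd163 stood at 0.07 ± 0.35 in HF3 and -0.02 ± 0.35 in HF4, relative to HF0 (SE).

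C1qb and Clec4a2 were highest in HF4-REV, at 1.03 ± 0.36 and 1.01 ± 0.47, a level that rests on 2 arrays of 1 pairing. For C1qb the next 6 groups, HF1 at 0.05 ± 0.21 through HF4 at -0.34 ± 0.21, lay closer to their neighbours than the residual SD of 0.42, and STD lay below them at -0.99 ± 0.21. For Clec4a2 the groups under HF4-REV ran in small steps to -0.89 ± 0.27 in HF4 and -0.92 ± 0.27 in STD. Dnase1l3 stood at 0.90 ± 0.27 in HF4-REV and ran from 0.24 ± 0.27 in HF1-REV to -0.51 ± 0.16 in HF4, with STD at -0.31 ± 0.16. Stab1 had the narrowest range, with 0.35 ± 0.37 in HF4-REV, -0.56 ± 0.21 in STD and -0.60 ± 0.21 in HF4, and no gap wider than its residual SD of 0.43 (SE throughout). HF4 was lowest for Stab1 and Dnase1l3, and STD was lowest for the other 4.

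**Figure D4:**
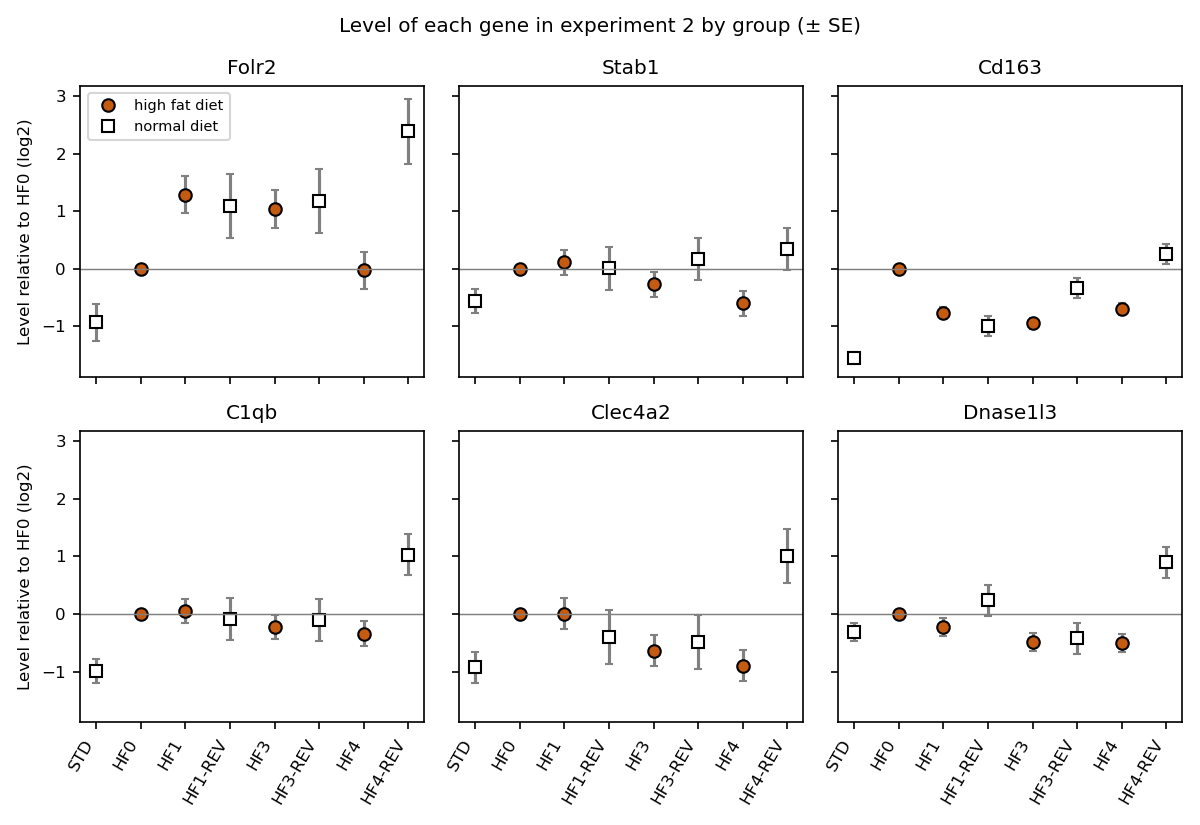
Level of each gene relative to HF0 (log2, ± SE) in the 8 groups of experiment 2, with filled circles for the high fat diet and open squares for the normal diet. HF4-REV is the highest point of every panel, from 0.26 for Cd163 to 2.38 for Folr2.

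In experiment 1 the fitted levels relative to HF0 ran from -0.70 to 0.07 and no gap between neighbours was wider than the residual SD for any of the 6. HF4 was lowest for 5 of the 6, all but Cd163, with -0.70 ± 0.18 for Dnase1l3 and -0.56 ± 0.34 for Folr2 (SE).

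C1qb, measured by 1 probe, did not follow the other C1q chains throughout. C1qa and C1qc, the other chains of the C1q molecule, read 1.12 and 1.37 and 1.75 and 1.29 in HF1 against HF0, where C1qb read 0.15 and -0.08. In HF3 against HF0 of experiment 2, C1qa read 1.26 and 0.40 and C1qc 1.69 and 0.63, where C1qb read 0.43 and -0.83. Folr2, at 1.78 and 0.93 and at 1.26 and 0.82, lay with C1qa and C1qc in both. In HF3 against HF0 of experiment 1 the chains did not part in sign. C1qa read -1.13 and -0.37 there, C1qc -1.40 and -0.87, and C1qb -1.15 and -0.68. In HF4 against HF4-REV C1qa read -2.37 and -2.14 and C1qc read -2.60 and -2.77, farther from 0 than C1qb. Over the 12 fitted group values C1qa and C1qc had a Pearson r of 0.99 with each other, 0.97 and 0.98 with Folr2, and 0.82 and 0.83 with C1qb. Without HF4-REV the values with Folr2 were 0.97 and 0.98 and those with C1qb 0.77 and 0.75. These group values share arrays and extracts, and the coefficients are descriptions.

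**Figure D5:**
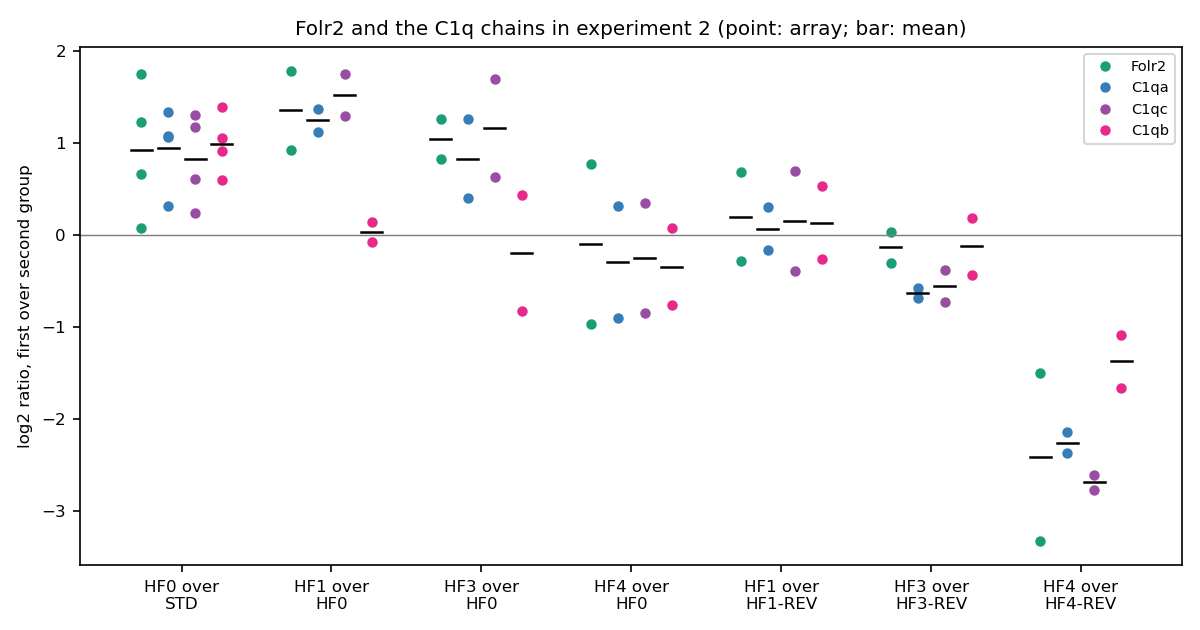
Log2 ratios of Folr2, C1qa, C1qc and C1qb on the arrays of 7 comparisons of experiment 2, with a bar for the mean. In HF1 over HF0 and HF3 over HF0 the means of Folr2, C1qa and C1qc lie between 0.83 and 1.52 while those of C1qb are 0.03 and -0.20.

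Several endothelial genes were positive with Folr2 in HF1 against HF0 and HF3 against HF0 of experiment 2, but not in HF0 against STD. In HF0 against STD of that experiment Folr2 was positive on all 4 arrays, while 11 of 12 endothelial markers were negative, with a median of -0.80. Kdr, a receptor for vascular growth factor, read 1.67 and 1.87 in HF1 against HF0 and 1.37 and 1.48 in HF3 against HF0. In HF1 against HF0, 11 of 12 endothelial markers were positive, with a median of 0.67, and all 4 erythroid markers were positive, with a median of 1.25. In HF3 against HF0, 8 of the 12 endothelial markers were positive, with a median of 0.24. The part of these cells in the Folr2 ratios was not tested.

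The neighbours of Clec4a2 in the Clec4 gene cluster differed in sign in some pairings. Clec4a1 read -0.76 and -0.43 in HF1 against HF0 and -0.70 and -0.92 in HF4 against HF4-REV. Clec4a3 read 1.03 and 0.69 in the first and 1.38 and -0.55 in the second. Over the 12 group values Clec4a1 had an r of 0.81 with Clec4a2, and Clec4a3 had -0.24. Without HF4-REV these were 0.63 for Clec4a1 and 0.50 for Clec4a3, so the sign for Clec4a3 rests on 1 group value. Of the 8 measured genes of the cluster, limma called 1 in HF4 against HF4-REV, Clec4b1, at -2.16 ± 0.45 (SE).

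Among themselves the 6 genes correlated over the 12 group values with a median r of 0.78 in 15 pairs. The highest was C1qb with Clec4a2, at 0.92, and the lowest Cd163 with Dnase1l3, at 0.53. Without HF4-REV the median was 0.59, and Cd163 with Dnase1l3 had an r of 0.07. In the 8 values of experiment 2 alone the median was 0.78. Folr2 was the most variable, with an SD of 0.90 over the 12 values, above that of 97.8% of features, and Stab1 the least, with 0.34, above 80.6%. The median SD of all features was 0.21.

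Genes with a symbol and an SD of at least 0.25, 7266 in all, were ranked by r with the mean of the 6 over the 12 values. The 10 highest were Cables1 at 0.99, Dcdc2a, Tlr1 and Ostf1 at 0.98, Pf4 and Nsmaf at 0.97, and Gltp, Grn, Cd300ld and Arhgdib at 0.96. Pf4 encodes a chemokine of platelets and macrophages, Tlr1 a receptor for bacterial lipoproteins, and Grn the lysosomal protein progranulin. Cd300ld is a receptor of myeloid cells. Without HF4-REV, 2 of the 10 stayed among the first 10, Pf4 and Tlr1, and 5 fell under the SD limit, while the r of all 10 lay between 0.91 and 0.98. In experiment 2 alone 4 of the 10 stayed.

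Measured against the same mean, the other resident macrophage genes had a median r of 0.86 in 30 genes, the pan-macrophage genes 0.81 in 12 and the recruited genes 0.61 in 15. Without HF4-REV these medians were 0.82 in 27, 0.71 in 12 and 0.65 in 10. By member, the closest genes were Oas1f, Lyz1 and Hspa1b for Folr2 at 0.99 each, and Dcdc2a, Cables1 and Pf4 for C1qb at 0.98 each. For Clec4a2 they were Ly86 at 0.97, and Chp2 and Pira1 at 0.96. For Stab1 they were P2rx4 at 0.95, and C1qtnf2 and Ltc4s at 0.94, and for Cd163 Fancm at 0.95, and Ang4 and P2ry12 at 0.94. Dnase1l3 had Hcst at 0.94, and Uqcrfs1 and Psmb10 at 0.93.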

How the data were processed

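Gene expression in mouse epididymal fat was measured on 34 arrays with 2 dyes, each pairing 2 groups. The authors deposited 1 log ratio per probe and array, taken here as log2 because the range, -6.31 to 7.99, goes beyond the log10 of a 16-bit scanner, 4.82; a natural log cannot be told apart. The sources used here give neither the background correction nor the normalization, and no intensities or depth accompany them. The number of arrays limits the precision.

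Probe names came from the platform annotation, with symbols updated by gene ID. Of 25344 probes, 21082 had 1 symbol, 30 several and 4232 none. Array medians were subtracted, the probes of a gene were averaged to 22879 features, and ratios were turned for dye and averaged over orientations. Least squares within each experiment gave 12 group values, 4 in experiment 1 and 8 in experiment 2, relative to the mean of STD, HF0, HF3 and HF4. limma 3.58.1 in R 4.3.3 fitted these with a block for experiment (degrees of freedom: 3 residual, 3.16 prior) and Benjamini-Hochberg adjustment over all features and a threshold of 0.05. HF1 and the reversal groups have 1 value each and are assumed to vary like the others. Levels in experiment 2 carry SEs from array residuals. The fit was tested on simulated data whose pairings add up apart from array noise. That test does not cover pairings that do not add up, as in experiment 1.

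The members and all 19 gene lists were chosen with earlier results of these data known. The text names the 6 genes, up to 4 genes of a list (called ones first, then by size), fixed partner genes, and the 10 genes most like the mean of the 6 and 3 per member. Hp and Cst11 were named after their values were seen. Alternatives were no centring, scale and quantile normalization, median of probes, a dye offset per date, a robust prior, each experiment alone, direct arrays only, no STD value of experiment 2, and leaving out each array. Correlations without HF4-REV and in experiment 2 alone were added after seeing the data. Promoters were taken from RefSeq.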

Additional observations from a re-analysis of the deposited data

Results flagged for a closer look

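Of 42 pairs of contrasts compared, 8 had every array of one contrast on one side of 0 and every array of the other on the opposite side. None of these differences was tested, and none of the 6 sets of 4 arrays held an array far from the others. In HF0 against STD the mean of experiment 2 exceeded that of experiment 1 by 2.05 for Cd163, by 1.35 for Folr2, by 1.27 for C1qb and by 1.10 for Clec4a2. In HF3 against HF0 the mean of Folr2 in experiment 2 exceeded that in experiment 1 by 2.04. In HF4 against HF3 the difference for Stab1, experiment 2 minus experiment 1, was -0.50. Cd163 was positive in HF1 against HF1-REV and negative in the later generations, with differences of -0.84 for HF3 against HF3-REV minus it and -1.19 for HF4 against HF4-REV minus it.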

How the results depend on the processing

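With 2 arrays per pairing and ratios that do not add up in experiment 1, signs near 0 are not settled, and spots near background could not be told from bright ones. Arrays could not be paired by animal or extract, because the labels carry no replicate numbers.

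The count of the 6 genes called in HF4 against HF4-REV, 5, was 2 after scale normalization, 0 after quantile normalization and 2 to 5 when single arrays were left out. It was 2 without 1 array of HF3 with STD in experiment 1, or of HF0 with STD or HF3 with HF0 in experiment 2. It was 3 without 1 array of HF4 with HF0 or of HF3 with HF1 in experiment 2. Over all 22879 features the negative calls were 870 in the main fit, 192 after scale and 11 after quantile normalization. In HF4 against HF0 the count of 0 was 2 without the STD value of experiment 2 and 0 to 2 when single arrays were left out. It was 2 without 1 array of HF4 with HF0, and 1 without 1 array of HF3 with HF1, HF1 with HF0 or HF4 with HF1, all in experiment 2. Over all features the negative calls were 4 in the main fit and 32 without that STD value, and the positive calls 959 and 1321. The share of all features called when single arrays were left out is not given here, so nothing is read from those counts. The cause was not tested.

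Medians over the 6 genes carry no test, and those near 0 changed sign. In HF4 against STD the median of 0.02 was -0.63 on direct arrays, and in HF1 against HF0 the median of 0.08 was -0.13 on direct arrays. In HF3 against STD the median of 0.19 was -0.20 in experiment 1 alone, and in HF1 against HF1-REV that of 0.17 was -0.16 without 1 array of the pairing. In HF3 against HF0 the median of -0.41 was -0.44 with no centring, -0.34 after scale and -0.50 after quantile normalization, -0.34 in experiment 1 alone, -0.38 in experiment 2 alone and -0.58 on direct arrays, with -0.45 to -0.34 when single arrays were left out. In HF4 against HF0 the median of -0.53 was -0.50 after scale and -0.63 after quantile normalization, -0.59 and -0.55 in experiments 1 and 2 alone and -0.40 on direct arrays, with -0.63 to -0.42 when single arrays were left out. In HF4 against HF3 the median of -0.16 was -0.12 after quantile normalization, -0.19 in experiment 2 alone and -0.13 on direct arrays, with -0.22 to -0.11. In HF3 against HF3-REV the median of -0.37 was -0.14 in experiment 2 alone and on direct arrays. Scaling turned the sign of Stab1 in HF3 against STD and HF1 against HF0, of Cd163 in HF3 against HF1 and of C1qb in HF1 against HF0, all near 0.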
